A study of Mus musculus with 4 samples.

Results

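Glutathione and NRF2 target genes were followed in mouse embryonic stem cells depleted of Exosc3, which belongs to the RNA exosome, the complex that trims and degrades RNA from its 3′ end. The 10 genes were chosen by symbol, with earlier results of these data known. Gclc, Gclm and Gss make glutathione, Slc7a11 imports its precursor, Ggt1 breaks it down outside the cell, and Gsr recycles it. Nqo1, Hmox1, Txnrd1 and Srxn1 are classical targets of the transcription factor NRF2. Of these 10 symbols 9 had a row among the 22883 gene models of the deposited table, each a single row, and Txnrd1, the cytosolic thioredoxin reductase, had none. All cells were Exosc3 CKO clones (conditional knockout) derived from the V6.5 mouse line and grown without feeders. The Exosc3-depleted group was taken off doxycycline for 3 days, and the Exosc3-present group stayed in 0.1 µg/ml doxycycline, with 2 libraries in each group. Doxycycline and Exosc3 therefore changed together and cannot be told apart. The labels do not say whether the 2 libraries of a group came from separate clones or cultures, so p-values measure only the spread between these samples, which may be technical.

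Values are FPKM, sequenced fragments scaled to the length of the gene model and to the size of the library, from stranded libraries depleted of ribosomal RNA. Exosc3 itself was at 0.635 and 0.691 FPKM in the Exosc3-depleted libraries, against 24.2 and 23.2 FPKM in the Exosc3-present libraries, so the targeted gene matched the labels. The libraries rested on 38095698 and 41968325 fragments in the Exosc3-depleted group and on 60851772 and 55233385 in the Exosc3-present group. Of these totals, by which FPKM divides, 42.4% and 44.1% lay in the listed gene models in the Exosc3-depleted libraries. In the Exosc3-present libraries the shares were 49.7% and 51.8%. The part of these shares in the fold changes below was not tested. Of 9336 rows with a mean of at least 0.5 FPKM, 42.7% passed the test (limma adjusted p under 0.05), 30.1% lower and 12.6% higher in Exosc3-depleted cells. The median tested row was at log2 -0.27, and rescaling that set it near 0 (median of ratios) left 17.0% of rows lower and 18.8% higher, so that 52.5% of called rows were higher in place of 29.6%. Embryonic stem cell markers (6 of 8 with a row) summed to 1295 to 1953 FPKM in Exosc3-depleted cells and to 3072 to 3081 in Exosc3-present cells, and without Dppa5a, most of that sum, to 478 to 596 and to 851 to 866. Tdgf1 (log2 -1.60), Zfp42 (-1.51), Esrrb (-1.32) and Dppa5a (-1.07) fell (limma adjusted p = 0.00118 to 0.0122). Pou5f1 (log2 -0.39, limma adjusted p = 0.167) and Utf1 (log2 -0.22, adjusted p = 0.339) did not pass. Fibroblast markers (7 of 7 with a row) summed to 0.860 to 1.27 and to 2.68 to 2.83 FPKM in these groups, with Postn, Lum and Dcn at 0 in all 4 libraries. Without Thy1 (0.151 and 0.206 FPKM in the Exosc3-depleted libraries, against 2.39 and 2.09 in the Exosc3-present libraries) the order turned (both reduced sums were chosen after the data were seen), to 0.654 to 1.12 FPKM in Exosc3-depleted cells and 0.443 to 0.589 in Exosc3-present cells. Their part in the results on the 10 genes was not tested. In bulk RNA, fewer cells that express a gene and less of its RNA per cell cannot be told apart.

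Glutathione is a tripeptide of glutamate, cysteine and glycine and the main small thiol of the cell. Glutamate-cysteine ligase, a catalytic subunit (Gclc) with a modifier subunit (Gclm), carries out the rate-limiting step of its synthesis, and glutathione synthetase (Gss) adds glycine. Cysteine reaches this step partly as cystine through the exchanger Slc7a11, which pairs with the heavy chain Slc3a2. Under oxidative or electrophilic stress NRF2, encoded by Nfe2l2 and otherwise marked for degradation by the adaptor KEAP1, binds antioxidant response elements with small MAF proteins and raises many of these genes. ATF4, a factor of the amino acid stress response, acts on Slc7a11 and Chac1 through CHOP-ATF response elements.

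Promoter windows from RefSeq (build GRCm38.p6, which is not the mm9 build of the table) were available for 7 of the 10 symbols and run from 250 bases before to 50 after an annotated start. They were searched on both strands for TGACNNNGC, the core of the antioxidant response element, for TGATGNAA, the core of the CHOP-ATF response element, and for TGANTCA, the AP-1 site; the first and the third can overlap. Among all 32851 windows of this length, 12.4% held TGACNNNGC, 3.97% held TGATGNAA and 7.81% held TGANTCA. Counted as at least 1 window of a gene, as for the genes here, the shares of 27025 genes were 14.0%, 4.51% and 8.97%. Genes with more windows have more room for a match. Ggt1 had 4 windows and Txnrd1 had 3, so these shares are not a like background for them. TGACNNNGC occurred in at least 1 window of Ggt1, Gclm, Txnrd1 and Srxn1, and TGATGNAA occurred in Slc7a11 alone of the 7. The windows of Gclm and Srxn1 are shown because both genes fell and both have a single annotated window with a TGACNNNGC match, and that of Slc7a11 because it carries TGATGNAA on both strands although its RNA was close to absent. Capitals mark these matches, and each sequence reads 5′ to 3′ on the gene's strand. The Gclm window (chr3:122245307-122245606, plus strand), that of Srxn1 (chr2:152105274-152105573, plus strand) and that of Slc7a11 (chr3:50443564-50443863, minus strand) read:
Gclm: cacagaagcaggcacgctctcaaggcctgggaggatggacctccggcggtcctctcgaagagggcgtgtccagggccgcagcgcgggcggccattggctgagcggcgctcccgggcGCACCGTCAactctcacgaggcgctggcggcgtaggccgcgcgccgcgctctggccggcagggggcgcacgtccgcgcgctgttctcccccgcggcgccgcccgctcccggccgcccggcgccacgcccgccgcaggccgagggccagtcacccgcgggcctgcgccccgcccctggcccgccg
Srxn1: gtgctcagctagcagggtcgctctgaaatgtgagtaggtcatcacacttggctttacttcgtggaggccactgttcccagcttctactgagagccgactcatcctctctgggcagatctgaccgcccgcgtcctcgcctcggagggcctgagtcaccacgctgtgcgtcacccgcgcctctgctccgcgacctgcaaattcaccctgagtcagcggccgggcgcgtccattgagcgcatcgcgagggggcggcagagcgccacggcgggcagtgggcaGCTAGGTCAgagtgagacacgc
Slc7a11: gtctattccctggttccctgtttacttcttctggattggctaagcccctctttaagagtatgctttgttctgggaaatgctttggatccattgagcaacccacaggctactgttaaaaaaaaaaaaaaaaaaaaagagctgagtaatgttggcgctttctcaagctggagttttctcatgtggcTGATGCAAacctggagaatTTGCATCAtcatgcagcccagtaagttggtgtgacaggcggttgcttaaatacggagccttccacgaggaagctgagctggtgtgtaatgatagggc
The match lies at bases 117 to 125 of the Gclm window and at bases 279 to 287 of the Srxn1 window, in both on the opposite strand. Srxn1 also held TGANTCA at bases 149 to 155 and 206 to 212, neither of which overlaps the capitals. In Slc7a11 the matches span bases 185 to 192 and 204 to 211. The single windows of Gss and Nqo1 held none of the 3 motifs. A match is a property of the letters and no measurement of binding.

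Of the 8 genes that could be tested, 4 fell in Exosc3-depleted cells (Ggt1, Gclm, Gsr and Srxn1), Hmox1 rose, and Gclc, Gss and Nqo1 did not pass. The 4 falls stand beside the 30.1% of all tested rows that were lower and the 1 rise beside 12.6% higher. The median of the 8 genes was log2 -0.66, against -0.27 for all tested rows. Because the genes were chosen with earlier results of these data known, these comparisons are a description and no test. In 6 of the 8 genes both Exosc3-depleted libraries lay below both Exosc3-present libraries, an order held by 50.9% of all tested rows. Hmox1 lay above without overlap, as did 22.2% of rows, and the groups of Gss overlapped. The 8 genes were all above 0.5 FPKM in the Exosc3-present libraries too, so none entered the test through a rise, and Slc7a11 was too low to be tested. When rows were rescaled to a common centre, only Ggt1 and Gclm stayed among the called falls, 2 of 8 genes beside 14.2% to 19.1% of all tested rows lower under those settings.

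**Figure D1:**
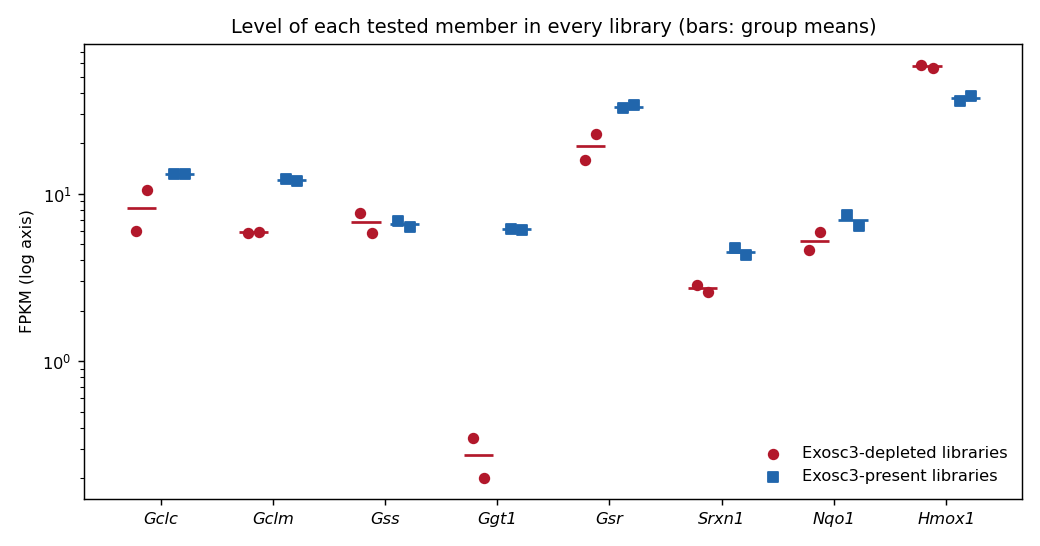
FPKM (log axis) of the 8 tested genes in each library, with 2 Exosc3-depleted libraries as red circles left of 2 Exosc3-present libraries as blue squares, and bars at the group means. Ggt1 is the gene whose groups lie farthest apart, Hmox1 is higher in both Exosc3-depleted libraries, and the groups of Gss overlap.

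The glutathione synthesis genes did not move alike. Gclm, the modifier subunit that raises the affinity of the ligase for glutamate, was at 5.86 and 5.93 FPKM in the Exosc3-depleted libraries, against 12.2 and 11.9 FPKM in the Exosc3-present libraries. The groups did not overlap, and replicates within a group lay within a few percent of each other. Gclm fell 2.04-fold as a ratio of means, to 5.89 ± 0.05 FPKM in Exosc3-depleted cells against 12.05 ± 0.18 FPKM in Exosc3-present cells (SD, n = 2 each; log2 -0.97, SE 0.17, limma adjusted p = 0.00496). The values came from 328 and 366 fragments in the Exosc3-depleted libraries and 1089 and 968 in the Exosc3-present libraries. The call ended without Exosc3-present replicate 1 or replicate 2, with the log2 fold change then at -0.96 and -0.99. The SE was then 0.43 and 0.42, taken mainly from the spread over all rows and not from the close Gclm replicates.

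Gclc, the catalytic subunit, was at 5.99 and 10.5 FPKM in the Exosc3-depleted libraries, against 13.1 and 13.0 FPKM in the Exosc3-present libraries. Both Exosc3-depleted libraries were lower, but they differed from each other 1.75-fold, and Exosc3-depleted replicate 2 lay close to the other group. Gclc did not pass, at a log2 fold change of -0.68 with an SE of 0.27 (limma adjusted p = 0.0762). Without Exosc3-depleted replicate 2 it did (log2 -1.06). That fit sets 1 Exosc3-depleted library against a spread taken mainly from the closer Exosc3-present pairs of all rows (SE 0.14, as for Gclm). It takes no account of the distance between the Exosc3-depleted libraries. Without replicate 1 the log2 fold change was -0.30. The ratio of Gclc to Gclm FPKM was 1.02 and 1.77 in the Exosc3-depleted libraries, against 1.08 and 1.09 in the Exosc3-present libraries, so the groups overlapped in the balance of the subunits. The difference between the mean ratios was 0.31, and -0.06 without Exosc3-depleted replicate 2. With 2 libraries against 2 an exact two-sided permutation test cannot go below p = 0.333, so the ratio is given as a description.

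Gss, which completes the tripeptide, was at 7.63 and 5.85 FPKM in the Exosc3-depleted libraries, against 6.86 and 6.35 FPKM in the Exosc3-present libraries. Both Exosc3-present libraries fell between the Exosc3-depleted ones. Its change was 0.02 on the log2 scale with an SE of 0.20 (limma adjusted p = 0.95) and took either sign as single libraries were left out, from -0.16 without Exosc3-depleted replicate 1 to 0.20 without replicate 2.

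Slc7a11, the light chain of the cystine and glutamate exchanger, was at 0 FPKM in both Exosc3-depleted libraries, against 0.0125 and 0.0118 FPKM in the Exosc3-present libraries. These values stand for 7 and 6 fragments on a model of 9227 bases, and for none in Exosc3-depleted cells. A floor of 3 fragments over the Exosc3-depleted pair is 0.00406 FPKM, and the pooled Exosc3-present level of 0.0121 FPKM was 2.99-fold above it. This ratio takes the 13 Exosc3-present fragments as exact, so it is no lower bound on the change. No test was made on so few fragments, and the floor covers counting error in the Exosc3-depleted pair only. Its partner Slc3a2, which also serves other light chains, was at 45.1 and 40.5 FPKM in the Exosc3-depleted libraries, against 84.4 and 92.9 FPKM in the Exosc3-present libraries (log2 -1.04, limma adjusted p = 0.0032). The TGATGNAA pair in the Slc7a11 window above thus belongs to a gene with next to no RNA in either group.

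Ggt1, the cell-surface gamma-glutamyl transferase that starts the breakdown of extracellular glutathione, changed most among the 8 genes. It was at 0.351 and 0.20 FPKM in the Exosc3-depleted libraries, against 6.18 and 6.06 FPKM in the Exosc3-present libraries. Only 27 and 17 fragments lay behind the Exosc3-depleted values, against 760 and 677 in the Exosc3-present libraries. As a ratio of means Ggt1 fell 22.2-fold (log2 -3.10 on the scale with 0.5 added to each value, SE 0.19, limma adjusted p = 0.000187). Of all tested rows 0.129% had a log2 fold change as low or lower. The call held in all 15 alternatives run, with log2 fold changes between -4.21 and -2.48, the value nearest 0 with an added constant of 1. Ggt1 has 4 RefSeq windows, of which 3 held TGACNNNGC and none held TGATGNAA, and the table does not say which start its single row follows.

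Gsr, glutathione reductase, returns oxidised glutathione to its reduced form at the expense of NADPH. It was at 15.9 and 22.6 FPKM in the Exosc3-depleted libraries, against 32.3 and 33.8 FPKM in the Exosc3-present libraries. Both Exosc3-depleted libraries were lower, replicate 1 more so, as for Gclc. Gsr fell to 19.3 ± 4.7 FPKM in Exosc3-depleted cells, against 33.1 ± 1.1 FPKM in Exosc3-present cells (SD, n = 2 each; log2 -0.79, SE 0.21, limma adjusted p = 0.0225). Relative to the median tested row the log2 fold change was -0.52. Rescaling to a common centre ended the call (limma adjusted p = 0.109 to 0.190), as did leaving out Exosc3-present replicate 1 (adjusted p = 0.119) or replicate 2 (adjusted p = 0.172).

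Srxn1, sulfiredoxin, reactivates over-oxidised peroxiredoxins and is a target of both NRF2 and AP-1. It was at 2.84 and 2.60 FPKM in the Exosc3-depleted libraries, against 4.73 and 4.30 FPKM in the Exosc3-present libraries. Fragments numbered 279 and 282 in the Exosc3-depleted libraries and 744 and 613 in the Exosc3-present libraries, and the groups did not overlap. Srxn1 fell 1.66-fold (log2 -0.64, SE 0.18, limma adjusted p = 0.0293), or by 0.37 relative to the median row. The call ended with rescaling (limma adjusted p = 0.157 to 0.195) and without Exosc3-present replicate 1 (adjusted p = 0.371) or replicate 2 (adjusted p = 0.276).

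Nqo1, the quinone reductase most often used to read out NRF2, was at 4.58 and 5.86 FPKM in the Exosc3-depleted libraries, against 7.42 and 6.43 FPKM in the Exosc3-present libraries. The groups did not overlap, but the gap between their nearest libraries was smaller than the gap between replicates in either group. Its change was -0.38 on the log2 scale with an SE of 0.20 (limma adjusted p = 0.172), close to the median row at -0.27. Nqo1 passed without Exosc3-depleted replicate 2 (log2 -0.54), where the spread again came mainly from the Exosc3-present pairs of all rows.

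Hmox1, heme oxygenase 1, degrades heme and is held down by the repressor BACH1 as well as raised by NRF2. It was at 58.8 and 56.0 FPKM in the Exosc3-depleted libraries, against 35.9 and 38.4 FPKM in the Exosc3-present libraries. Replicates lay close together in both groups and the groups did not overlap. Hmox1 rose 1.55-fold, to 57.4 ± 2.0 FPKM in Exosc3-depleted cells against 37.1 ± 1.8 FPKM in Exosc3-present cells (SD, n = 2 each; log2 0.62, SE 0.16, limma adjusted p = 0.0201). Relative to the median tested row it lay at log2 0.89, and 87.8% of tested rows had a lower or equal log2 fold change. Rescaling raised the log2 fold change to between 0.94 and 1.0, and the call held. It ended without Exosc3-present replicate 1 (log2 0.57) or replicate 2 (log2 0.67), where the SE of 0.37 came mainly from the spread over all rows.

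**Figure D2:**
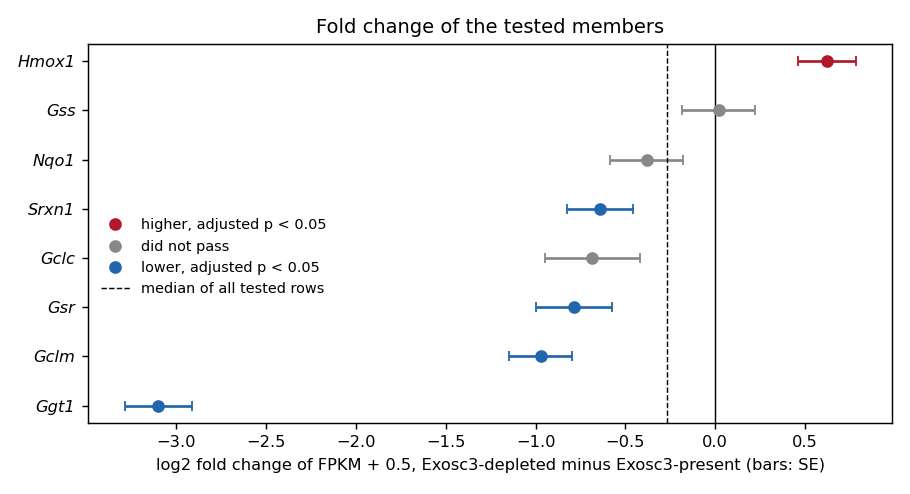
Log2 fold change of FPKM + 0.5, Exosc3-depleted minus Exosc3-present, for the 8 tested genes, with bars for the standard error, red for a rise, blue for a fall and grey for genes that did not pass. The dashed line is the median of all tested rows (-0.27); Ggt1 lies far below it at -3.10, Hmox1 above it at 0.62, and Nqo1 beside it.

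Ordered by FPKM, which is per length, Exosc3-depleted cells held most Hmox1 (57.4), then Gsr (19.3), Gclc (8.24), Gss (6.74), Gclm (5.89), Nqo1 (5.22), Srxn1 (2.72) and Ggt1 (0.275), with Slc7a11 last. From Gclc to Nqo1 each gene overlapped its neighbour between the 2 libraries. In Exosc3-present cells the order by mean FPKM was Hmox1 (37.1), Gsr (33.1), Gclc (13.1), Gclm (12.05), Nqo1 (6.93), Gss (6.60), Ggt1 (6.12) and Srxn1 (4.52), again with Slc7a11 last. Among these Nqo1 and Gss alone overlapped. The level of Gclm was thus above that of Gss in both Exosc3-present libraries and indistinct from it in Exosc3-depleted cells.

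**Figure D3:**
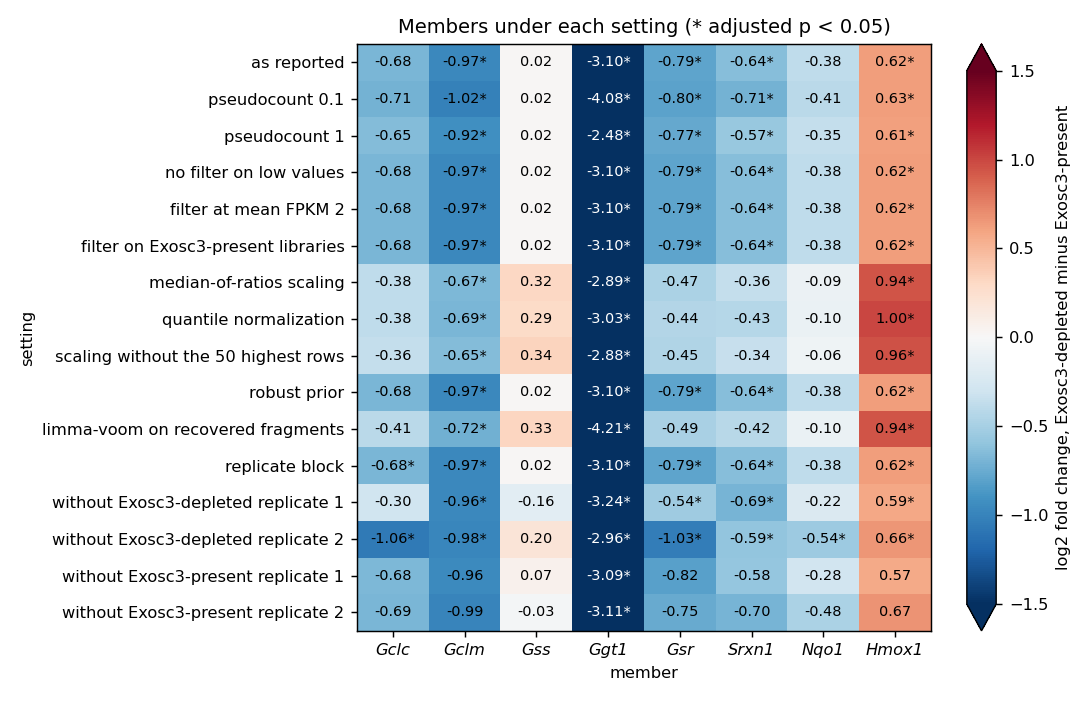
Log2 fold change (colour and number) of the 8 tested genes in columns under each setting in rows, Exosc3-depleted minus Exosc3-present, with a star where the adjusted p was under 0.05. Ggt1 carries a star in every row, Hmox1 and Gclm lose theirs when an Exosc3-present library is left out, and Gsr and Srxn1 lose theirs also under the 4 settings that re-centre the libraries.

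The rest of the pathway was read from 6 lists that hold 165 other symbols, also chosen with earlier results of these data known. Of these symbols 134 were present in the table and 115 passed the filter. Of these 55 fell and 14 rose, beside 30.1% of all tested rows lower and 12.6% higher, and the median was log2 -0.57. Genes around the supply and breakdown of glutathione had the lowest median, log2 -1.18, with 12 of 17 falling and 1 rising. Chac1, which cleaves glutathione inside the cell, was at 0.552 and 0.577 FPKM in the Exosc3-depleted libraries, against 36.5 and 32.0 FPKM in the Exosc3-present libraries (log2 -5.02). Its promoter window held 1 match to TGATGNAA. The glutamine transporter Slc1a5 (log2 -2.12), the glycine methyltransferase Gnmt (-2.08) and the aminopeptidase Anpep (-1.37), which acts after Ggt1 on cysteinyl-glycine, also fell. Ggt7, of the same family as Ggt1, was named after its values were seen as the 1 gene of the list that rose. It was at 1.32 and 1.1 FPKM in the Exosc3-depleted libraries, against 0.334 and 0.416 FPKM in the Exosc3-present libraries (log2 0.97, limma adjusted p = 0.00388). Ggt7 passed the filter only through its level in the Exosc3-depleted libraries. With the filter set on the Exosc3-present libraries, 0 of 16 genes of the list rose. Ggct, also named after its values were seen, acts on gamma-glutamyl dipeptides released from glutathione. It averaged 6.42 FPKM in Exosc3-depleted cells and 4.61 FPKM in Exosc3-present cells and did not pass (limma adjusted p = 0.108).

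Among glutathione-using enzymes 12 of 31 fell (38.7%) and 4 rose (12.9%), shares near the 30.1% and 12.6% of all tested rows, and the glutathione peroxidases went both ways. The secreted peroxidase Gpx3 rose to 32.2 and 23.8 FPKM in the Exosc3-depleted libraries, against 3.29 and 3.84 FPKM in the Exosc3-present libraries (log2 2.80). Gpx1, the abundant cytosolic peroxidase, rose by log2 1.38, whereas Gpx2 fell by 1.58 and the transferase Gsta4 by 2.0 on that scale. Gpx4, which reduces lipid peroxides, was at 337 and 237 FPKM in the Exosc3-depleted libraries, against 347 and 242 FPKM in the Exosc3-present libraries (log2 -0.04, limma adjusted p = 0.911), and its sign was positive under all 4 rescalings. In the thioredoxin and peroxiredoxin list 11 of 18 fell (61.1%) and 3 rose (16.7%), beside 30.1% and 12.6% of all tested rows. The 4 genes with the smallest p, Txnrd3 (log2 -1.37), Sod2 (-1.36), Msrb2 (-1.35) and Prdx6 (-1.13), fell. Changes in the list ran from log2 -1.37 to 1.69, so the largest was a rise. Txn1, the substrate of the absent Txnrd1 row, fell by 1.03 on the log2 scale, a call that ended without Exosc3-present replicate 2 (adjusted p = 0.0527, limma).

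Among 21 other NRF2 targets 10 were lower (47.6%) and 3 higher (14.3%), beside 30.1% of all tested rows lower and 12.6% higher. The microsomal epoxide hydrolase Ephx1 rose (log2 1.94), while the pentose phosphate enzyme transketolase, Tkt (-1.68), pirin, Pir (-1.90), and biliverdin reductase A, Blvra (-1.45), which acts on the product of Hmox1, fell. Of 16 tested regulators 7 fell (43.8%, beside 30.1% of all tested rows). Under the 4 rescalings 2 to 3 fell (12.5% to 18.8%), near the 14.2% to 19.1% of all tested rows. Nfe2l2, the gene of NRF2, was at 3.26 and 5.63 FPKM in the Exosc3-depleted libraries, against 9.68 and 9.75 FPKM in the Exosc3-present libraries (log2 -1.09, SE 0.26, limma adjusted p = 0.0144). This call ended without Exosc3-present replicate 1 (adjusted p = 0.0530) or replicate 2 (adjusted p = 0.0609). The related factor Nfe2l1 fell by 1.25 on the log2 scale, Atf4 by 1.41, and Rbx1, a subunit of the ligase that marks NRF2, by 0.80; Rbx1 did not pass under any of the 4 rescalings (limma adjusted p = 0.0529 to 0.118), nor without Exosc3-present replicate 1 (limma adjusted p = 0.122) or replicate 2 (adjusted p = 0.135). Bach1, the repressor of Hmox1, was at 0.932 and 1.88 FPKM in the Exosc3-depleted libraries, against 1.52 and 1.69 FPKM in the Exosc3-present libraries (log2 -0.19, limma adjusted p = 0.594). Bach1 passed as lower without Exosc3-depleted replicate 2 (log2 -0.55), again on a spread taken mainly from the Exosc3-present pairs of all rows. Keap1 had no row under that symbol.

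The last list pools selenoprotein genes with the machinery that Txnrd1 and the glutathione peroxidases need for selenocysteine, and had a median of log2 -0.05. Of 13 tested, 3 fell and 3 rose (23.1% each, beside 30.1% of all tested rows lower and 12.6% higher). The median hides a split, seen after the values were known. All falls were in machinery genes, whose log2 fold changes ran from -1.32 to -0.02, beside -0.27 for the median row. All rises were in the remaining genes, which encode selenoproteins and ran from 0.02 to 0.78. Sephs2 (log2 -1.32), which makes the selenium donor, and Pstk (-0.95), which acts on the selenocysteine tRNA, fell, as did Sephs1 (-0.96). The deiodinase Dio3 rose (0.78) to only 0.982 FPKM. It averaged 0.367 FPKM in Exosc3-present cells and passed the filter only through the Exosc3-depleted libraries. With the filter set on the Exosc3-present libraries, 2 of 12 genes rose. Without Exosc3-present replicate 1, Pstk (limma adjusted p = 0.15), Sephs1 (0.0846) and Dio3 (0.133) did not pass, and without replicate 2 Pstk (0.0617) and Sephs1 (0.125) did not. With 1 library left out, the number of the 115 genes that were called moved widely, as did that of all tested rows. The fewest falls came without Exosc3-present replicate 2 and the fewest rises without Exosc3-present replicate 1.

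**Figure D4:**
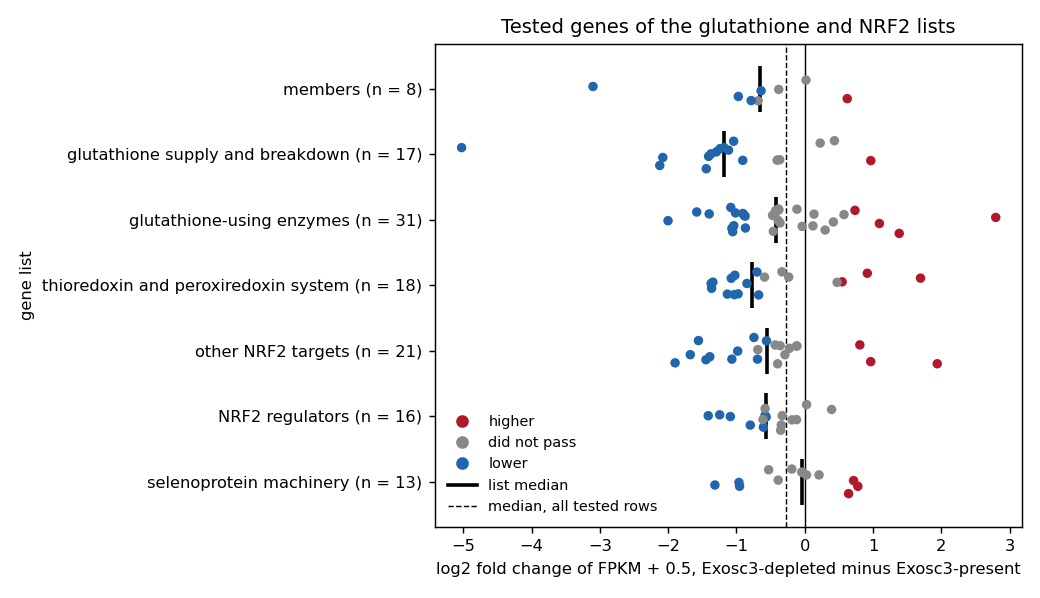
Log2 fold change of FPKM + 0.5, Exosc3-depleted minus Exosc3-present, of each tested gene (points, jittered in height) in the 8 tested genes of the set and the 6 wider lists, with red for rises, blue for falls and grey for genes that did not pass. Thick bars are list medians and the dashed line is the median of all tested rows (-0.27); the supply and breakdown list lies lowest at -1.18 and the selenoprotein list nearest 0 at -0.05.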

How the data were processed

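Total RNA of 4 libraries with a RIN of at least 8.5 was sequenced in paired-end mode, per the labels' protocols. The authors deposited 1 table of FPKM values. The submitters' processing notes list edgeR, bedtools, Picard, STAR, Bowtie2 and the build mm9, with no version, so the step that made FPKM is not given in the sources used here. Library totals, model lengths and whole fragments were worked out from the step size between values, in all 15471 rows above 0. The shortest fitting length was kept.

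Rows whose mean reached 0.5 FPKM (9336) were tested on the log2(FPKM + 0.5) scale by limma 3.58.1 with a trended prior in R 4.3.3, two-sided, with Benjamini-Hochberg adjustment and a threshold of 0.05. This scale understates the change of low genes; N-fold values are ratios of mean FPKM. The fit and the recovery of fragments were tested on simulated data with known changes, lengths and counts. Genes named were the 10 members, the 4 smallest p-values in each list and 9 further genes fixed by name. These were Nfe2l2, Keap1, Bach1, Nfe2l1, Slc3a2, Chac1, Txn1, Gpx4 and Txnrd2, of which Keap1 and Txnrd2 had no row. Ggt7 and Ggct were named besides, after their values were seen. The members and lists were chosen with earlier results of these data known. The alternatives were each library left out in turn, a block on replicate number, limma-voom with TMM scaling on recovered fragments, a robust prior, quantile normalization, rescaling by median of ratios or to the sum without the 50 top rows, other filters and other pseudocounts.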

Additional observations from a re-analysis of the deposited data

How the results depend on the processing

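The named genes kept their direction and their calls under other pseudocounts, other filters and a robust prior, wherever they could still be tested. Slc7a11 was under the filter of the main test and was left out of these comparisons. The 4 members called lower became 2 under median-of-ratios scaling, quantile normalization, scaling without the 50 highest rows and limma-voom, which shift the median row by 0.22 to 0.30 on the log2 scale. Scaling without the 50 highest rows also left 34 of the wider genes lower in place of 55, and ended the calls of Nfe2l2 and Sephs1; all 4 ended that of Rbx1. Over the 4 rescalings 14.2% to 19.1% of all rows were lower, beside 11 of 17 genes (64.7%) of the supply list, 7 to 9 (22.6% to 29.0%) of the glutathione-using enzymes, 6 to 9 (33.3% to 50%) of the thioredoxin list, 6 to 7 (28.6% to 33.3%) of other NRF2 targets, 2 to 3 (12.5% to 18.8%) of regulators and 2 to 3 (15.4% to 23.1%) of the selenoprotein list. With each library left out in turn, 1 to 6 members were lower and 0 to 1 higher, 31 to 74 and 6 to 21 of the wider genes, and 1750 to 6334 of all rows were called; the difference in the Gclc to Gclm ratio ran from -0.0615 to 0.68. With only 1 Exosc3-present library the residual spread comes from the Exosc3-depleted pair, which differed more over all rows (SD 0.43) than the Exosc3-present pair (0.19). With only 1 Exosc3-depleted library it comes from the Exosc3-present pair. In both cases the lone library is assumed to vary like the other group. A gene's own pair counted little in these fits. Without Exosc3-present replicate 1 the SE was 0.43 for Gclm, whose Exosc3-depleted libraries lay close together. It was 0.42 for Gclc, whose Exosc3-depleted libraries did not. These p-values thus rest mainly on a spread pooled over all rows. Signs turned for genes that had not passed: Bach1 to 0.0453 with median-of-ratios scaling, 0.0712 without the 50 highest rows and 0.0389 with limma-voom; Gpx4 to 0.28, 0.30 and 0.27 under these and to 0.43 with quantile normalization. With libraries left out, Gss ran from -0.16 to 0.20, Bach1 from -0.55 to 0.18 and Gpx4 from -0.30 to 0.22. For these 3 the cause was not tested. The replicate numbers pair only 2 libraries a group, and same-numbered differences correlated at 0.24 across rows. With the replicate number as a block 5 members were lower, Gclc being added (limma adjusted p = 0.00427), and 4899 rows were called. In that fit the SE was 0.22 for Gclc, Gclm and Ggt1 alike, so it too came mainly from a spread pooled over all rows. Each member had a single row, so summing rows of a symbol was not run. Depth limits Slc7a11 (0 to 7 fragments) and Ggt1 in Exosc3-depleted cells.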
